A study of Mus musculus with 19 samples.

Results

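The 10 genes described here, Gpr34, P2ry12, P2ry13, Csf1r, Cx3cr1, Tmem119, Aif1, Trem2, Tyrobp and Laptm5, are receptors and markers by which microglia are recognised in the brain. Every probe set whose only gene symbol in the platform annotation was one of these was taken, whatever its values, which gave 18 of the 45037 non-control probe sets on the array and 10 of 18193 genes with a symbol of their own. Brain RNA of male mice was hybridised to 19 Affymetrix arrays. Wild-type (wt) animals and animals with the SCA3 transgene, which models spinocerebellar ataxia type 3, received either CCI-779 or placebo. CCI-779 is temsirolimus, a derivative of rapamycin and inhibitor of the mTOR kinase. Injections into the peritoneum began at 5 weeks of age, were given 3 times a week for 6 weeks, and carried 20 mg/kg of CCI-779 or, equally often, placebo. The groups held 4 arrays of wt mice on placebo, 5 of wt mice on CCI-779, 5 of SCA3 mice on placebo and 5 of SCA3 mice on CCI-779. The comparisons ask what the drug did in each genotype, what the transgene did under each agent, and whether the drug acted differently in the 2 genotypes. The promoter of the transgene, the brain region taken and the background strain are not given in the sources used here. Whether each array stands for its own animal is not said in the labels, and the p-values then reflect only how far these arrays differ from each other, which could be technical. One wt CCI-779 array, named 1 here, bears no number in its label.

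Microglia are the resident macrophages of the brain. They depend on signalling through the receptor CSF1R for survival, survey their surroundings with fine processes guided by purinergic and chemokine receptors, and take up debris through receptors such as TREM2, which signals through the adaptor TYROBP. In the resting brain they express P2ry12, Tmem119 and Gpr34 at levels that set them apart from other brain macrophages. Microglia are a minority of brain cells, and in RNA from whole tissue fewer microglia and less RNA of a gene per cell cannot be told apart.

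Of the 10 genes, 6 had a promoter among those searched from the RefSeq table for assembly GRCm38.p6. They were P2ry12, P2ry13, Cx3cr1, Aif1, Trem2 and Laptm5. Gpr34, Csf1r, Tmem119 and Tyrobp had none among them. The search left out a whole chromosome and sequences that were incomplete or held undetermined bases. These genes may therefore still have an entry in the table. The 250 bases before the transcription start were searched on both strands for GAGGAA, the core of sites for PU.1, the master transcription factor of macrophages, for GGAAGT, a core of ETS family sites, and for TATAAA, the TATA box. Over the 32841 promoters searched, of 27018 genes, 23.3% held the first, 19.7% the second and 12.4% the third. The sequences of 4 are shown because P2ry12 and Laptm5 are members that fell under the drug, P2ry13 is the next protein-coding gene to P2ry12 on chromosome 3, and Cx3cr1 held none of the motifs. They stand on the gene's strand, 5′ to 3′, and end at the base before the start. Capitals mark the motifs, and TTCCTC is GAGGAA read on the other strand.
P2ry12, chr3:59262986-59263235, minus strand: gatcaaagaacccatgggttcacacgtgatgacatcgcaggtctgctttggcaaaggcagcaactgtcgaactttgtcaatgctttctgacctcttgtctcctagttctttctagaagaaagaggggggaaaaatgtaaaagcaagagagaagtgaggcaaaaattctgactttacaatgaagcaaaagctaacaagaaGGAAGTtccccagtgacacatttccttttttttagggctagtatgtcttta
P2ry13, chr3:59210883-59211132, minus strand: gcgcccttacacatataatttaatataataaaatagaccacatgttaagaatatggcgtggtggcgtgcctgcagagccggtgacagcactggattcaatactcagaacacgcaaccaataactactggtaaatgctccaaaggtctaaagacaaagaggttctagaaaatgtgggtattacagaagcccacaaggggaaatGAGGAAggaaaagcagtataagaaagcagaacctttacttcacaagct
Laptm5, chr4:130913066-130913315, plus strand: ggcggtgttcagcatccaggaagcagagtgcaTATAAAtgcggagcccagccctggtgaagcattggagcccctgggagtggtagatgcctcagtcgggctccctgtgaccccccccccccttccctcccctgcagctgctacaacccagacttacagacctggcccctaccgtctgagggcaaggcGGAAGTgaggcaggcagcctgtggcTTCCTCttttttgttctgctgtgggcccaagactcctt
Cx3cr1, chr9:120068297-120068546, minus strand: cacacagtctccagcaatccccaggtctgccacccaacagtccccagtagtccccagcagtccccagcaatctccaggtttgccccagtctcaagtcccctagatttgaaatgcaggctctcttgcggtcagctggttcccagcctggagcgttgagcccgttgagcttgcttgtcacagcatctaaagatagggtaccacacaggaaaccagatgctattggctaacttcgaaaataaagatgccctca
P2ry12 held the ETS core 51 to 46 bases before the start. P2ry13 held the PU.1 core at 48 to 43 bases, and Laptm5 held it on the other strand at 38 to 33 bases, with an ETS core at 63 to 58 bases and TATAAA farther away at 218 to 213 bases. Of the promoters not printed, Trem2 held the PU.1 core at 40 to 35 bases and Aif1 at 7 to 2 bases, both on the other strand. These matches describe letters, and binding was not measured.

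The values are GCRMA intensities, taken here to log2, so a difference of 1 is a doubling of intensity. A probe set was tested where its mean log2 intensity over the 19 arrays was at least 4. That left 9 probe sets of 7 members, of 20473 tested in all: Gpr34, P2ry12, Cx3cr1, Aif1, Tyrobp and Laptm5 with 1 each, and Csf1r with 3. P2ry13, Tmem119 and Trem2 had no probe set above that level. Group values are means ± SD over 4 arrays of wt mice on placebo or 5 of any other group, and a gene with several tested probe sets is represented by the brightest. Differences come from limma with Benjamini-Hochberg adjustment over all 20473 probe sets, at an adjusted p under 0.05.

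Some arrays stood apart over all probe sets. The wt CCI-779 array 1 had a 3′ minus 5′ difference of the actin control probe sets, a measure of RNA integrity, of 2.55, against 1.20 to 1.53 in the other arrays of its group. Arrays 2 and 5 of SCA3 mice on CCI-779 had 0.96 and 0.88 against 1.44 to 1.55, and lay at 42.4 and 39.2 on the second principal component of all tested probe sets, where the other 3 arrays of the group lay between -1.96 and 2.47. Mean intensity was alike in all 19 arrays, from 443 to 469. The hybridisation spike-ins, added in equal amounts to each sample by the Affymetrix protocol, averaged 10.88 ± 0.10 in SCA3 mice on CCI-779 against 11.71 ± 0.18 on placebo, and 10.56 ± 0.27 in wt mice on CCI-779 against 11.48 ± 0.27 on placebo. Every CCI-779 array was below every placebo array in that measure. The 3′ minus 5′ difference of the GAPDH control probe sets averaged -0.35 ± 0.06 in SCA3 mice on CCI-779 against -0.52 ± 0.03 on placebo, and -0.28 ± 0.32 against -0.54 ± 0.04 in wt mice. The probe sets for the labelling spike-ins averaged 5.41 ± 0.35 in SCA3 mice on CCI-779 against 6.32 ± 0.26 on placebo, without overlap, and 5.58 ± 0.19 against 6.11 ± 0.36 in wt mice, where the groups overlapped. All 3 measures moved with the drug in both genotypes, and their part in the results was not tested. What goes with the hybridisation spike-ins cannot be told apart from the drug in these arrays. Below, a fall or rise under the drug means a difference between these groups of arrays.

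In SCA3 mice CCI-779 lowered 4 of the 7 members, Gpr34, P2ry12, Csf1r and Laptm5, by 0.40 to 1.20 on the log2 scale, and raised none. Without CCI-779 arrays 2 and 5 of that genotype, which stood apart, 0 of the 7 passed in limma and 4 had an unadjusted p under 0.05. With all arrays kept, 6.09% of all 10454 genes tested were called lower in SCA3 mice. The share of all genes called without arrays 2 and 5 is not given here. Whether the members lost their calls more than other genes did was therefore not tested. In wt mice CCI-779 lowered 3 of the 7, P2ry12, Csf1r and Cx3cr1, by 0.27 to 0.62, where 1.64% of all genes were called lower. All 7 members, by their brightest probe set, had a difference below 0 in each genotype. Of all 10454 genes tested, 5163 lay below 0 in SCA3 and 3495 in wt mice. The sign of Aif1 in both genotypes and of Cx3cr1 in SCA3 mice turned when some single arrays were left out. The members' median difference was -0.52 in SCA3 and -0.57 in wt, beside 0.00 and 0.08 over all genes tested. P2ry12 and Csf1r passed in both genotypes. When the drug effect was averaged over both genotypes, a contrast added after the data were seen, 6 of the 7 fell, all but Aif1, where 8.26% of all genes were called lower.

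**Figure D1:**
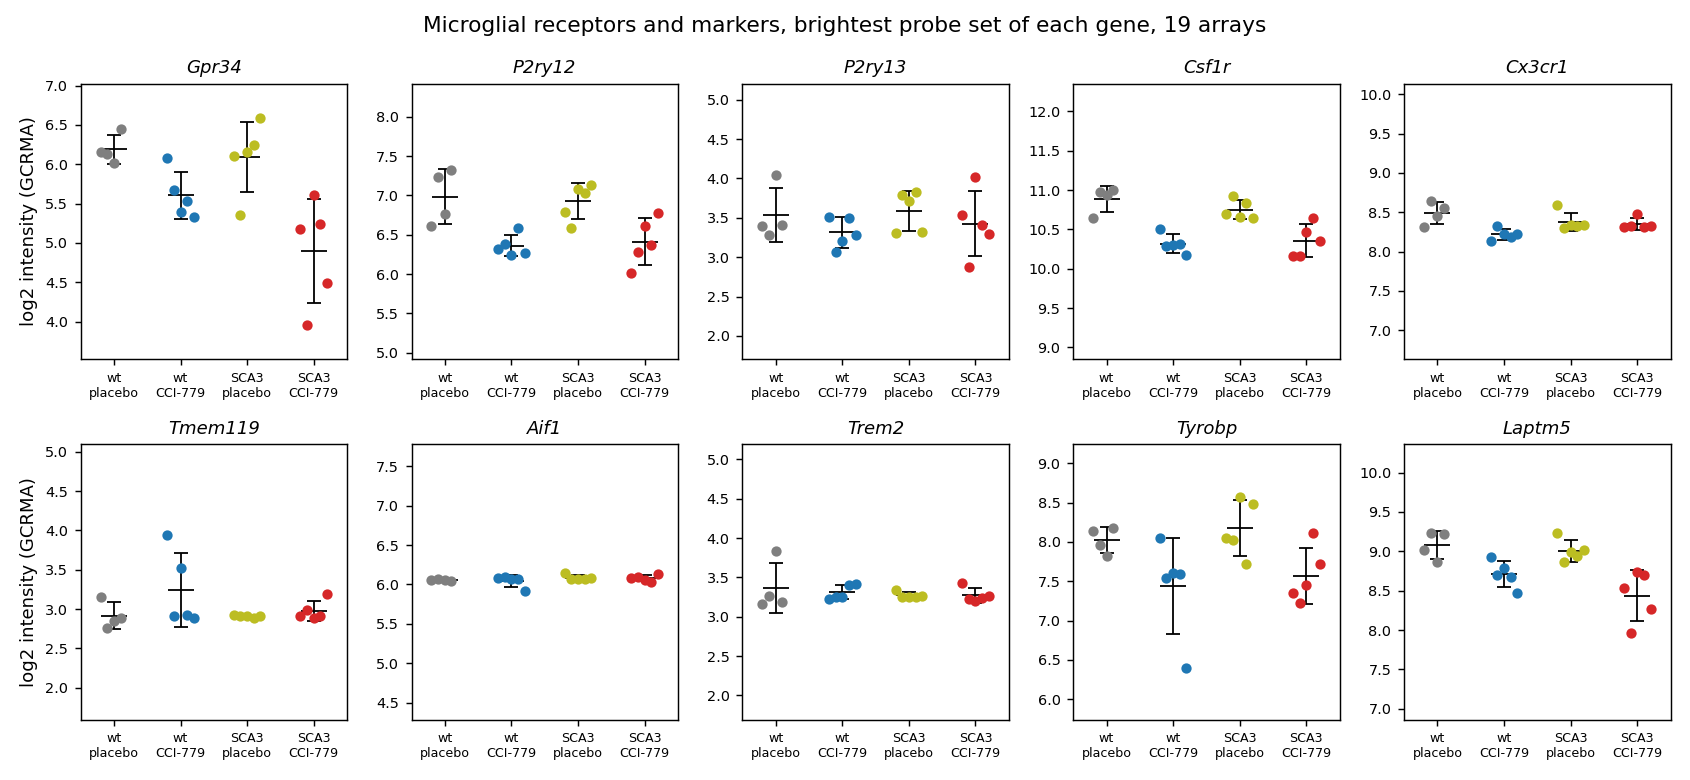
Log2 intensity (GCRMA) of the brightest probe set of each of the 10 genes on each of 19 arrays, by group. Points are arrays, long bars are group means and whiskers are 1 SD. The axes of all panels span the same number of log2 units, so spreads can be compared between panels but not levels. Gpr34, P2ry12, Csf1r, Tyrobp and Laptm5 lie lower in both CCI-779 groups, while Aif1 stays between 5.92 and 6.14 on all arrays.

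Gpr34 encodes a receptor for lysophosphatidylserine that is enriched in microglia. On placebo its intensity was 6.16, 6.12, 6.02 and 6.44 on the wt arrays and 6.11, 5.36, 6.16, 6.24 and 6.59 on the SCA3 arrays. On CCI-779 it was 6.07, 5.68, 5.39, 5.54 and 5.33 in wt and 5.18, 3.96, 5.61, 5.24 and 4.49 in SCA3 mice. The lowest of all 19 values were those of arrays 2 and 5 of SCA3 mice on CCI-779, the arrays that stood apart, and 4 of the 5 arrays of that group lay below every SCA3 placebo array. The mean fell from 6.09 ± 0.45 to 4.89 ± 0.66 in SCA3 mice, a difference of -1.20 (SE 0.26, adjusted p = 0.00653). This was the largest fall among the 10454 genes in the fit of all 19 arrays. The difference was -0.75 and the call was lost when arrays 2 and 5 were left out (adjusted p = 0.0568, in a range from 0.00235 to 0.0568 over all alternatives). In wt mice the difference was -0.59 (SE 0.28, adjusted p = 0.176), with 4 of 5 CCI-779 arrays below every placebo array, and did not pass. It passed there with array weights (adjusted p = 0.0378) and without the 3 arrays that stood apart (0.0318), in a range from 0.0318 to 0.366 over all alternatives. Averaged over both genotypes Gpr34 fell by 0.89 (SE 0.19, adjusted p = 0.00247).

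P2ry12 encodes the ADP receptor that directs microglial processes toward injury. Its values on placebo were 6.61, 7.23, 6.77 and 7.33 in wt and 6.79, 6.58, 7.08, 7.03 and 7.13 in SCA3 mice. With CCI-779 they were 6.32, 6.38, 6.24, 6.59 and 6.27 in wt and 6.01, 6.28, 6.61, 6.37 and 6.77 in SCA3 mice. In wt mice the groups did not overlap, although the margin was small, with 6.59 as the highest drug value and 6.61 as the lowest placebo value. In SCA3 mice 3 of the 5 drug arrays lay below all placebo arrays. P2ry12 fell by 0.62 in wt (SE 0.16, adjusted p = 0.0220) and by 0.52 in SCA3 mice (SE 0.16, adjusted p = 0.0325). With no filter on low values, and so more probe sets to adjust over, it missed the threshold in both (adjusted p = 0.0527 and 0.0783), and over all alternatives the adjusted p ran from 0.00756 to 0.0803 in wt and from 0.0164 to 0.0797 in SCA3 mice. The SCA3 call was also lost, at -0.59, when CCI-779 arrays 2 and 5 of that genotype were left out (adjusted p = 0.0568). P2ry13, a related ADP receptor encoded beside it, was dim, with values from 2.87 to 4.04 over the 19 arrays and group means of 3.53 ± 0.34 and 3.31 ± 0.19 in wt mice on placebo and CCI-779, and of 3.59 ± 0.26 and 3.43 ± 0.42 in SCA3 mice. It was not tested.

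Csf1r encodes the receptor for the growth factors CSF1 and IL-34. Its brightest probe set read 10.65, 10.97, 10.94 and 11.01 in wt mice on placebo and 10.51, 10.28, 10.30, 10.32 and 10.17 on CCI-779. In SCA3 mice it read 10.70, 10.93, 10.65, 10.84 and 10.65 on placebo and 10.16, 10.16, 10.47, 10.65 and 10.35 on CCI-779. The groups did not overlap in either genotype, though in SCA3 mice the highest drug array and the lowest placebo array differed by less than 0.01. Among all tested probe sets, 4.67% were lower without overlap in SCA3 mice and 2.96% in wt mice. The difference was -0.57 in wt (SE 0.10, adjusted p = 0.00322) and -0.40 in SCA3 mice (SE 0.10, adjusted p = 0.0132). In SCA3 mice the call was lost, at -0.32, without CCI-779 arrays 2 and 5 (adjusted p = 0.0993).

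The other tested probe sets of Csf1r did not show this fall. The second had group means of 8.85 ± 0.08 and 8.85 ± 0.15 in wt mice on placebo and CCI-779, a difference of -0.00 with a 95% interval from -0.25 to 0.24. In SCA3 mice its means were 8.98 ± 0.16 and 9.04 ± 0.26, a difference of 0.06 with an interval from -0.18 to 0.29. The third gave -0.01 in wt mice (-0.28 to 0.26) and 0.08 in SCA3 mice (-0.18 to 0.33). In both genotypes these intervals left out the difference measured by the brightest probe set in the same mice. When the values of the 3 probe sets were averaged, the gene no longer passed, at -0.20 in wt (adjusted p = 0.110) and -0.09 in SCA3 mice (adjusted p = 0.452), while over all alternatives its adjusted p ran from 0.000428 to 0.110 in wt and from 0.00492 to 0.452 in SCA3 mice. The array design's name ending marks the second set as sharing probes with other transcripts and the third as matching several transcripts of the gene. The transcripts that each set matches were not compared here.

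**Figure D2:**
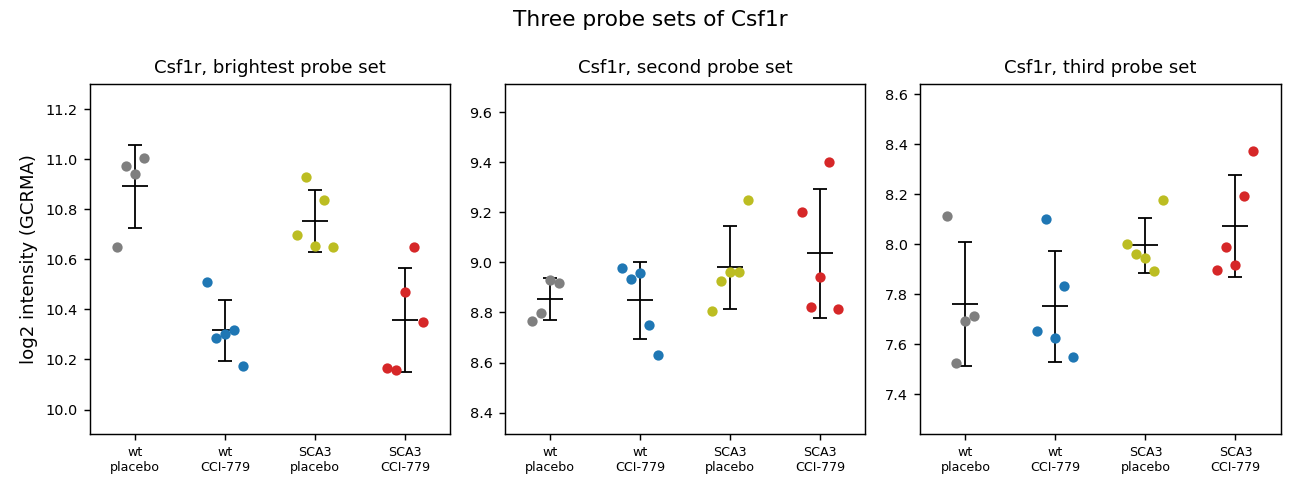
Log2 intensity (GCRMA) of the 3 tested probe sets of Csf1r on each array, by group, with the group mean (long bar) and SD (whiskers). The axes span the same number of log2 units. The brightest set separates drug from placebo in both genotypes, and in the second and in the third the groups overlap.

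Cx3cr1 encodes the receptor for fractalkine, a chemokine made by neurons. In wt mice it read 8.32, 8.64, 8.45 and 8.56 on placebo and 8.13, 8.33, 8.23, 8.19 and 8.22 on CCI-779. In SCA3 mice it read 8.59, 8.30, 8.34, 8.32 and 8.34 on placebo and 8.32, 8.32, 8.48, 8.31 and 8.33 on CCI-779. In wt mice 4 of 5 drug arrays lay below every placebo array, while in SCA3 mice the groups overlapped throughout. Cx3cr1 fell by 0.27 in wt mice (SE 0.07, adjusted p = 0.0239) and differed by -0.02 in SCA3 mice (95% interval -0.17 to 0.12). The interaction, which tests whether these effects differ, was 0.25 with an unadjusted p of 0.0236 and an adjusted p of 0.633, so a difference between the genotypes was not shown. The wt call was lost when the fit held only the wt arrays (adjusted p = 0.0634) and without wt CCI-779 array 1 (adjusted p = 0.0519) or wt placebo array 2 (0.0875) or 4 (0.0725), among others. It was kept in 24 of 30 alternative fits, and over all alternatives the adjusted p ran from 0.00892 to 0.124. A second, dim probe set of Cx3cr1 had group means of 2.82 ± 0.22 and 2.46 ± 0.08 in wt mice on placebo and CCI-779, and of 2.76 ± 0.38 and 2.47 ± 0.03 in SCA3 mice, and was not tested.

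Tyrobp encodes DAP12, the signalling adaptor of TREM2 and of related receptors. Wild-type arrays read 8.14, 7.96, 7.82 and 8.18 on placebo and 8.05, 7.55, 7.60, 7.59 and 6.40 on CCI-779. SCA3 arrays read 8.05, 8.03, 8.58, 7.72 and 8.49 on placebo and 7.35, 7.22, 7.45, 8.11 and 7.72 on CCI-779. In each genotype 4 of 5 drug arrays lay below all placebo arrays, and wt CCI-779 array 5 was the lowest of all 19. The differences of -0.60 in SCA3 (SE 0.25, adjusted p = 0.104) and -0.59 in wt mice (SE 0.26, adjusted p = 0.143) were similar in size and did not pass. Their average over both genotypes, -0.60 (SE 0.18, adjusted p = 0.0190), did. With no filter on low values that average missed the threshold (adjusted p = 0.0516), in a range from 0.00560 to 0.0516 over all alternatives. Without wt CCI-779 array 5, which widens the shared spread, the SCA3 difference passed (adjusted p = 0.0314), and over all alternatives its adjusted p ran from 0.0314 to 0.300. Tyrobp was among the most variable members, since 94.0% of tested probe sets of like intensity had a smaller SD within groups. Its partner receptor Trem2 was dim, from 3.17 to 3.84 over the 19 arrays in its brighter set, with group means of 3.36 ± 0.32, 3.31 ± 0.09, 3.27 ± 0.04 and 3.27 ± 0.09 in wt mice on placebo and CCI-779 and SCA3 mice on placebo and CCI-779. Its further set had a mean of 2.26.

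Laptm5 encodes a lysosomal membrane protein of haematopoietic cells that dampens immune receptor signalling. Values in wt mice were 9.02, 9.23, 8.86 and 9.22 on placebo and 8.93, 8.70, 8.78, 8.68 and 8.46 on CCI-779. Values in SCA3 mice were 9.23, 8.86, 9.0, 8.94 and 9.01 on placebo and 8.53, 7.96, 8.73, 8.70 and 8.26 on CCI-779. The SCA3 groups did not overlap, and the lowest values were again those of arrays 2 and 5. Laptm5 fell by 0.57 in SCA3 mice (SE 0.13, adjusted p = 0.00861), from 9.01 ± 0.14 to 8.44 ± 0.33. Without arrays 2 and 5 the difference was -0.35 and the call was lost (adjusted p = 0.0722, in a range from 0.00441 to 0.0722 over all alternatives). In wt mice the difference was -0.37 (SE 0.14, adjusted p = 0.0901) and did not pass, and 4 of 5 drug arrays lay below every placebo array. It passed there with quantile normalization again (adjusted p = 0.0445), with each array centred on its median (0.0386) and with array weights (0.0206), and without SCA3 CCI-779 array 2, both arrays 2 and 5 of that group, or the 3 arrays that stood apart, in a range from 0.0149 to 0.214 over all alternatives. The probe set's name ending marks it as one that may cross-hybridise with other transcripts. Of 4 further probe sets of Laptm5, with means of 3.94, 2.40, 2.34 and 2.0, none reached the level for testing.

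Aif1, the gene of the cytosolic marker IBA1 by which microglia are stained, held nearly the same value everywhere. Its group means were 6.06 ± 0.01 and 6.05 ± 0.07 in wt mice on placebo and CCI-779 and 6.09 ± 0.03 and 6.08 ± 0.04 in SCA3 mice. The drug difference was -0.01 in both genotypes, with 95% intervals from -0.11 to 0.08 in wt and from -0.10 to 0.08 in SCA3 mice. These intervals leave out a change of the size measured for Gpr34, P2ry12 or the brightest set of Csf1r in either genotype by this probe set. The values spanned 0.22 over 19 arrays, and only 2.17% of tested probe sets of like intensity had a smaller SD within groups, while how closely this probe set, whose name ending marks probes shared with other transcripts, follows Aif1 was not tested. Tmem119, a surface marker of resident microglia, was dim, from 2.77 to 3.94, and the highest value was on the wt CCI-779 array 1. Its group means were 2.92 ± 0.17 and 3.24 ± 0.47 in wt mice on placebo and CCI-779 and 2.91 ± 0.01 and 2.98 ± 0.12 in SCA3 mice. The defining markers of the cell type were therefore measured in part only, since Tmem119, P2ry13 and Trem2 stayed below the level for testing in every group.

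**Figure D3:**
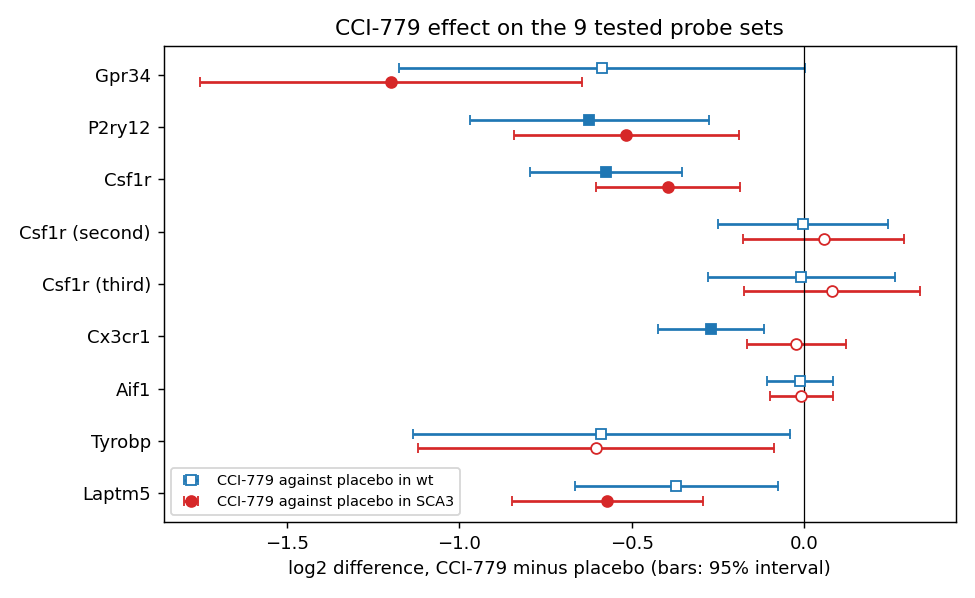
Difference of log2 intensity, CCI-779 minus placebo, for each of the 9 tested probe sets, in wt (squares) and SCA3 mice (circles), with 95% intervals. Filled symbols passed at an adjusted p under 0.05, 3 in wt and 4 in SCA3 mice. Differences run from -1.20 for Gpr34 in SCA3 mice to 0.08 for the third set of Csf1r.

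The SCA3 calls rested in part on the arrays that stood apart. Without arrays 2 and 5 of SCA3 mice on CCI-779, all 4 members kept their sign, P2ry12 was no smaller than before, and Gpr34 and Laptm5 were smaller by over 1.5 times. When wt CCI-779 array 1 was left out as well, Gpr34 (adjusted p = 0.0281), P2ry12 (adjusted p = 0.0440) and Laptm5 (adjusted p = 0.0389) passed again, and Csf1r did not (adjusted p = 0.0623). P2ry12 in SCA3 mice missed the threshold without any one of CCI-779 arrays 1, 2 and 4 or placebo arrays 3, 4 and 5 of that genotype. In wt mice, leaving out those 3 arrays gave 4 calls, Gpr34, P2ry12, Csf1r and Laptm5, while leaving out wt placebo array 2 or 4 left Csf1r alone. The average over both genotypes held 5 calls without arrays 2 and 5 and 5 without all 3, and Cx3cr1 was the one lost in each (adjusted p = 0.0802 and 0.108). For the counts in this paragraph, the share of all genes called in the same setting is not given here. Cx3cr1 also missed the threshold in that average without any one of wt CCI-779 arrays 1 and 4, SCA3 CCI-779 arrays 1, 2, 4 and 5, SCA3 placebo array 1 and wt placebo arrays 2 and 4.

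The transgene had no called effect on the members. Under placebo 0 of 7 passed in limma, and under CCI-779 0 of 7, where 0.00977% of all tested probe sets passed in each comparison. Under placebo none of the 9 tested probe sets had an unadjusted p under 0.05, and differences ran from -0.14 for the brightest set of Csf1r to 0.23 for the third. Under CCI-779 Gpr34 differed by -0.71 between SCA3 and wt mice (unadjusted p = 0.0151, adjusted p = 0.230) and the third set of Csf1r by 0.32 (unadjusted p = 0.0162, adjusted p = 0.235). The interaction of genotype and drug passed for 0 of 7 members and for 0% of all probe sets. For Gpr34 it was -0.61 (95% interval -1.42 to 0.20, adjusted p = 0.728), for P2ry12 0.11 (-0.37 to 0.58) and for Csf1r 0.18 (-0.12 to 0.48), so the intervals still allow differences between the genotypes larger than the drug effects measured in SCA3 mice.

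Within groups the members were correlated to differing degrees. After each group's mean was taken off, the 21 pairs of members had a median correlation of 0.28 over the 19 arrays, and 3 pairs lay below 0. The highest was 0.80 for Gpr34 and Laptm5, and the lowest was -0.15 for Tyrobp and Cx3cr1. Gpr34 and P2ry12 correlated at 0.29. Correlations among other genes were not compared. All points share their arrays, including those that stood apart, and these values are a description.

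The genes whose pattern over the 19 arrays was most like the mean of the 7 tested members, each centred on its own mean, were not microglial by the lists used here. The 8 closest by Pearson correlation were Psmc2 and Psma5, proteasome subunits, Rsu1 and Lasp1, of cell adhesion and the actin skeleton, Fscn1, an actin-bundling protein, Spry2, an inhibitor of growth factor signalling, Cox6b1, a subunit of cytochrome oxidase, and Bnip3, a mitochondrial protein of mitophagy. Psmc2 was first at 0.92 and Lasp1 last at 0.89, and after each group's mean was taken off the 8 lay between 0.66 and 0.80. Over the 16 arrays left without the 3 that stood apart they lay between 0.85 and 0.92. The points share their arrays and the drug groups, and no test was made.

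**Figure D4:**
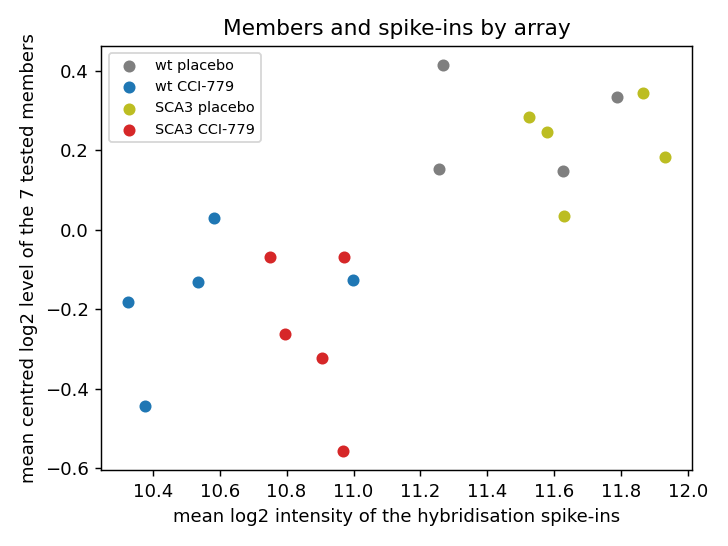
Mean of the 7 tested members, each centred on its own mean over 19 arrays (log2 units, vertical axis), against the mean log2 intensity of the hybridisation spike-ins (horizontal axis), 1 point per array coloured by group. Placebo arrays lie at the upper right and CCI-779 arrays at the lower left.

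Lists of other microglial genes are given beside the members. Of 30 further microglial genes 13 were tested. Their median difference was 0.04 in SCA3 and 0.02 in wt mice, and 6 of the 13 lay below 0 in each. Ctss, a lysosomal protease abundant in microglia, fell by 0.34 in SCA3 (SE 0.10, adjusted p = 0.0267) and by 0.34 in wt mice (SE 0.10, adjusted p = 0.0398). Gas6, a ligand of TAM receptors made by several brain cell types, rose by 0.47 in SCA3 mice (SE 0.15, adjusted p = 0.0421). Over all genes tested, 6.09% were called lower and 11.0% higher in SCA3 mice, and 1.64% and 11.5% in wt mice. Without arrays 2 and 5 of SCA3 mice on CCI-779, 0 of the 13 passed in limma in SCA3 mice and 3 had an unadjusted p under 0.05, and leaving out single arrays gave 0 to 3 calls in SCA3 and 0 to 4 in wt mice. Over all alternatives the adjusted p ran from 0.00539 to 0.137 for Ctss in SCA3 mice, from 0.00864 to 0.10 for Ctss in wt mice and from 0.0168 to 0.316 for Gas6. In SCA3 mice Ctss missed the threshold without CCI-779 array 1 or 2 or placebo array 1 or 2, and Gas6 without CCI-779 array 2, 4 or 5, placebo array 1, 2, 3 or 4 or wt CCI-779 array 3 or 4. In wt mice Ctss missed it without CCI-779 array 2, 4 or 5, placebo array 2, 3 or 4 or SCA3 placebo array 3. Calls were also lost under other alternatives. Of 29 alternative fits, Ctss was called in 21 in SCA3 and 20 in wt mice, and Gas6 in 15 in SCA3 mice. Genes chosen after their values were seen, which did not pass in either genotype, went both ways. Fcrls, an Fc receptor-like gene of resident microglia, differed by -0.38 in SCA3 (adjusted p = 0.119) and -0.42 in wt mice (adjusted p = 0.116), and Cd53, a leukocyte tetraspanin, by -0.31 (adjusted p = 0.145) and -0.41 (adjusted p = 0.0725). Cst3 differed by 0.23 in SCA3 (adjusted p = 0.0839) and 0.27 in wt mice (adjusted p = 0.0594). Siglech, Itgam, Itgb2, Ptprc and Cd68 lay between 2.43 and 2.76 in mean log2 intensity and were not tested.

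Ligands of microglial receptors, not only of the members, and transcription factors of microglia were tested in part. Over all genes tested, 11.0% were called higher in SCA3 and 11.5% in wt mice, which stands beside each count in this paragraph. Of 10 ligands 7 were tested. Cd47, the "do not eat me" signal read by Sirpa, rose by 0.35 in SCA3 (adjusted p = 0.000605) and by 0.27 in wt mice (adjusted p = 0.00575), and Cx3cl1, fractalkine, rose by 0.37 in SCA3 mice (adjusted p = 0.0296) and differed by 0.27 in wt mice (adjusted p = 0.130). The wt call of Cd47 was lost with each array centred on its median (adjusted p = 0.0707, in a range from 0.00276 to 0.0707). Among fits without a single array, the call of Cx3cl1 was lost without CCI-779 array 1 or 5 or placebo array 2, 3 or 4 of the SCA3 mice. Other alternatives lost it too, and it was kept in 19 of 29 alternative fits, with adjusted p from 0.00474 to 0.0833. Csf1 did not pass in SCA3 (0.11) or wt mice (0.23), and Il34 had a mean of 2.33 and was not tested. Of 14 genes listed as signalling below Trem2, Tyrobp and Csf1r, 4 were tested and 1 was called. It was Sirpa, itself an inhibitory receptor and also abundant in neurons, which rose by 0.41 in SCA3 (adjusted p = 0.000908) and by 0.49 in wt mice (adjusted p = 0.000880). Of 11 transcription factors 4 were tested, with 0 called in SCA3 mice, where 1 had an unadjusted p under 0.05, and Cebpb higher by 0.34 in wt mice (adjusted p = 0.0369). Among fits without a single array, the call of Cebpb was lost without CCI-779 array 1, 3 or 4 or placebo array 2, 3 or 4 of the wt mice. Other alternatives lost it too, and it was kept in 18 of 29 alternative fits, with adjusted p from 0.0106 to 0.126. Spi1, which encodes PU.1, Irf8 and Runx1 had means of 2.13, 3.08 and 2.78 and were not tested.

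Genes of disease-associated microglia, a state entered in neurodegeneration with lower homeostatic receptors, were tested for 12 of 18. In SCA3 mice 3 of the 12 rose and none fell, with a median of 0.08, where 11.0% of all genes tested were called higher. They were Axl, a TAM receptor tyrosine kinase, by 0.75 (SE 0.16, adjusted p = 0.00496), Timp2, a metalloprotease inhibitor, by 0.42 (adjusted p = 0.0211), and Ank, a pyrophosphate transporter, by 0.23 (adjusted p = 0.0168). Without arrays 2 and 5 of SCA3 mice on CCI-779 none of these passed, with 5 of the 12 genes at an unadjusted p under 0.05, and the adjusted p of Axl over all alternatives ran from 0.00187 to 0.0547. Ank also missed it with each array centred on its median, at 0.175 (adjusted p = 0.0950, in a range from 0.00747 to 0.0950). Timp2 also missed the threshold in SCA3 mice without SCA3 CCI-779 array 2 or 5 or SCA3 placebo array 2, and was called in 23 of 29 alternative fits. In wt mice 0 of the 12 passed in limma and 3 had an unadjusted p under 0.05, with Axl at 0.49 (adjusted p = 0.0636) and a median of 0.07. Other brain cells also express these 3 genes. Cst7, Itgax, Clec7a and Gpnmb, which are low outside that state, had means between 2.10 and 2.24 and were not tested.

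**Figure D5:**
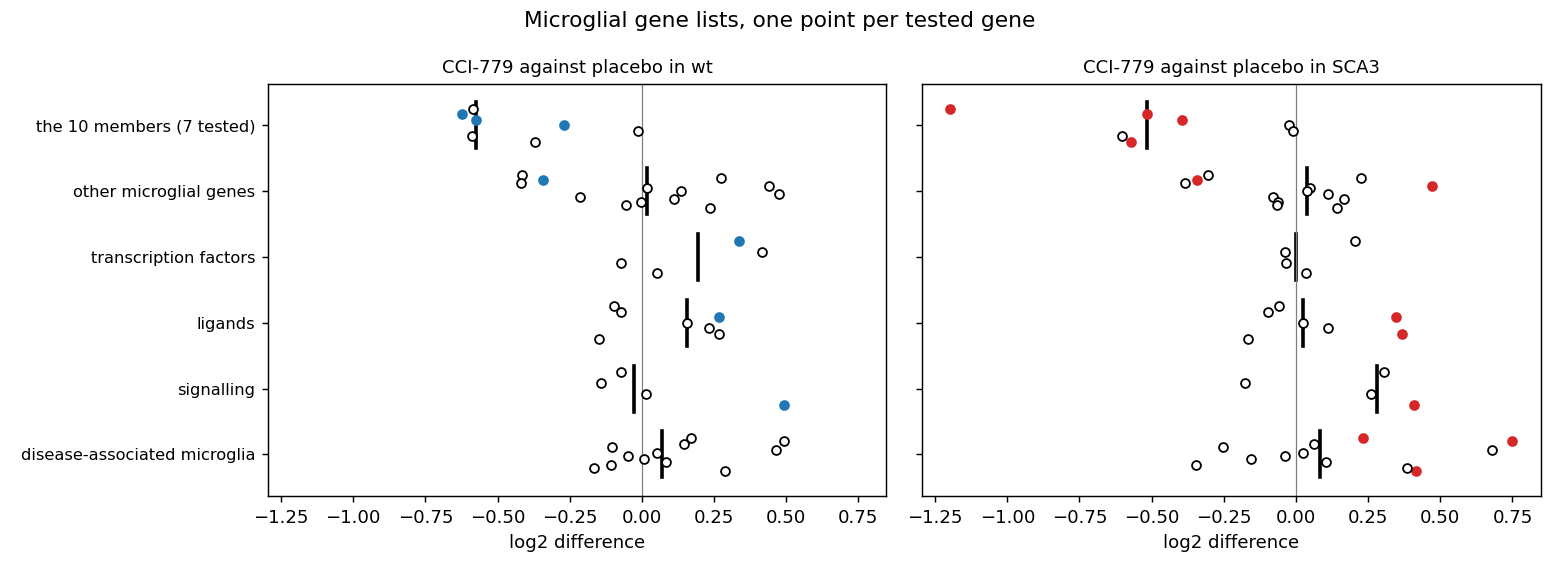
Log2 difference, CCI-779 minus placebo, of each tested gene of the members and of the microglial lists, in wt (left) and SCA3 mice (right). Filled points passed at an adjusted p under 0.05 and vertical bars are medians. The members' medians lie at -0.57 and -0.52, and those of the other lists between -0.03 and 0.28.

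Markers of other cell types were followed in the same fit. Among border macrophages of the meninges and vessels, 1 of 10 markers was tested, Stab1, and it was not called, while the defining Mrc1, Cd163 and Lyve1 had means of 3.21, 2.90 and 2.69. Of 14 leukocyte markers 2 were tested, S100a8 and S100a9, and of 7 erythrocyte markers 2, Alas2 and Slc4a1, with 0 called in either genotype by limma and none at an unadjusted p under 0.05. Sums over the tested leukocyte markers ran from 28 to 1192 over the 19 arrays, highest on a SCA3 placebo array. Endothelial markers were tested for 8 of 12, and Itm2a alone passed, falling by 0.45 in SCA3 and by 0.41 in wt mice. Over all genes tested, 6.09% were called lower in SCA3 and 1.64% in wt mice.

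Oligodendrocyte markers also fell in SCA3 mice, for 7 of the 13 tested of 14, where 6.09% of all genes tested were called lower. Their median was -0.41, with a summed intensity from 75843 to 83636 on CCI-779 against 87498 to 114680 on placebo. Ugt8a, which makes galactosylceramide, fell by 0.75 (adjusted p = 0.00146), Cnp, a myelin protein, by 0.57 (adjusted p = 0.000814), Olig1, a lineage transcription factor, by 0.39 (adjusted p = 0.00135) and Mal, a myelin proteolipid, by 0.70 (adjusted p = 0.00237). In wt mice 0 of the 13 passed in limma and 4 had an unadjusted p under 0.05, with a median of -0.06, where 1.64% of all genes tested were called lower. The interaction of genotype and drug passed for 0 of the 13, with 4 at an unadjusted p under 0.05, so a difference between the genotypes was not shown. Under placebo all 13 were higher in SCA3 than in wt mice, by 0.095 to 0.404, with 0 called. Centring each array on its median gave 3 calls in wt mice. Without arrays 2 and 5 of SCA3 mice on CCI-779, 6 of the 13 passed. Of 14 neuronal markers 3 rose and 1 fell in SCA3 mice and 4 rose and 1 fell in wt mice, and of 12 astrocyte markers 3 rose in SCA3 and 5 in wt mice and none fell. Over all genes tested, 11.0% were called higher in SCA3 and 11.5% in wt mice. Leaving out single arrays gave 4 to 5 neuronal and 3 astrocyte calls in SCA3 mice and 3 to 5 and 2 to 5 in wt mice. The neuronal calls in SCA3 mice fell to 1, and the astrocyte calls stayed at 3, without CCI-779 arrays 2 and 5 of that genotype. Centring each array on its median gave 3 neuronal and 2 astrocyte calls in wt mice. The part of these other cell types in the members' values was not tested.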

How the data were processed

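The deposited values are probe set intensities on a linear scale, 1 column for each of 19 Affymetrix arrays of 1 colour. The authors computed these intensities with GCRMA, as the submitters' processing notes name it, a method that removes background using each probe's base content, brings arrays to a common distribution and combines a set's probes. The version of GCRMA and the scanner settings are not given in the sources used here. Log2 of each intensity was taken here with no pseudocount. Genes were named from the platform annotation, in which 34945 probe sets carried 1 symbol, 932 several and 9160 none, and sets with several were left unnamed. The tests excluded 64 control probe sets.

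Probe sets with a mean log2 of at least 4 over all arrays (20473) were tested in 1 limma 3.58.1 fit (R 4.3.3; lmFit, contrasts.fit, eBayes) of 4 group means, with residual and prior degrees of freedom of 15 and 2.59. Tests were two-sided with Benjamini-Hochberg adjustment per contrast. The fit was tested on simulated data. The number of arrays limits the precision. An SE is that of the moderated test, and a 95% interval is the moderated one of a single probe set.

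The members, gene lists and tests were chosen with earlier results of these data known, and the contrast averaged over both genotypes was added after the data were seen. All 10 members and their probe sets were named. Of the lists of other microglial genes, transcription factors, ligands, signalling genes, disease-associated microglia and markers of border macrophages, leukocytes, erythrocytes, neurons, astrocytes, oligodendrocytes and endothelium, counts were given and up to 4 genes past the threshold with the smallest p were named, except for neurons and astrocytes, given by counts. Listed genes named without passing were chosen after their values were seen. Likeness is the Pearson correlation with the members' mean profile. Promoters came from RefSeq.

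Arrays of different groups with the same number in their labels were compared by the correlation of their deviations from the group means. Of 24 such pairs, 9 correlated above 0.1, in a range from -0.31 to 0.29. The numbers were not taken to pair samples in the main fit. Pairs with different numbers were not compared, so whether a number marks arrays that deviate together was not tested. No arrays were identical. Alternatives were other filters, quantile normalization again, centring arrays on their medians, array weights, a trended and robust variance, fits to the 2 groups compared alone, averaged probe sets, the number as a block, other thresholds and arrays left out.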

Additional observations from a re-analysis of the deposited data

Results flagged for a closer look

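Single arrays lay far from the rest of their group in 8 of the 48 combinations of 12 member probe sets and 4 groups that were looked at, measured by the gap to the nearest array as a share of the group's range. The limit used is passed by about 1 in 20 groups of independent, normally distributed values. These combinations share arrays and include dim probe sets, so an excess over that share was not tested. Values are log2 intensities. Cx3cr1 stood at 8.59 on array 1 of SCA3 mice on placebo, where the other 4 lay between 8.30 and 8.34, and at 8.48 on array 3 of SCA3 mice on CCI-779, where the other 4 lay between 8.31 and 8.33. Aif1 stood at 5.92 on array 5 of wt mice on CCI-779, below 6.07 to 6.09 in the rest, and at 6.14 on array 1 of SCA3 mice on placebo, above 6.07 to 6.09. Among the dim genes, P2ry13 stood at 4.04 and Trem2 at 3.84 on the same array, number 3 of wt mice on placebo, above 3.28 to 3.40 and 3.17 to 3.26 in the rest. Trem2 also stood at 3.34 on array 1 of SCA3 mice on placebo, above 3.25 to 3.26, and at 3.43 on array 1 of SCA3 mice on CCI-779, above 3.21 to 3.26. In Aif1, and in Trem2 in the SCA3 groups, the other arrays lie so close together that these gaps are small in log2 units. The gap of Trem2 on wt placebo array 3, from 3.26 to 3.84, is larger.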

How the results depend on the processing

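In SCA3 mice 4 members fell, and the count was 0 without CCI-779 arrays 2 and 5 of that genotype and 2 at a threshold of 0.01; the cause was not tested. In wt mice 3 fell, and the count was 5 with array weights and 1 at a threshold of 0.01, where the stricter threshold sets it. Leaving out each array in turn gave 3 to 5 calls in SCA3, 1 to 4 in wt mice and 5 to 6 for the average over both genotypes. No alternative gave a rising call among the members, and the genotype and interaction comparisons stayed at 0. With the number in the labels as a replicate block, over the arrays that carry one, the counts were 4 in SCA3 mice, 2 in wt mice and 5 for the average. The share of all genes called under each alternative is not given here. Whether the members' counts moved more than those of other genes was therefore not tested. Centring each array on its median lowers every wt difference by 0.10 and every SCA3 difference by 0.06 on the log2 scale, and kept every call among the members while adding Laptm5 in wt mice.

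Signs turned only in differences that passed under no setting, and the cause was not tested. In SCA3 mice Cx3cr1 was 0.014 with array weights and the second set of Csf1r -0.003 with median centring. In wt mice the third set of Csf1r was 0.003 with array weights, 0.009 with the replicate block and 0.016 without the 3 arrays that stood apart. Between genotypes, Csf1r was 0.074 under placebo with averaged probe sets, and P2ry12 under CCI-779 was -0.029 without SCA3 arrays 2 and 5 and -0.039 without all 3. The interaction of Laptm5 was 0.018 and 0.073 in these last settings. For the average over both genotypes, the second set of Csf1r was -0.042 with quantile normalization again and -0.056 with median centring, and the third -0.040, -0.047 and, without SCA3 arrays 2 and 5, -0.001.

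Leaving out single arrays carried these across 0. In SCA3 mice Cx3cr1 ran from -0.055 to 0.029, Aif1 from -0.021 to 0.005 and the second set of Csf1r from -0.035 to 0.124. In wt mice Aif1 ran from -0.024 to 0.019, the second set of Csf1r from -0.035 to 0.052 and the third from -0.096 to 0.108. Between genotypes under placebo Gpr34 ran from -0.221 to 0.086 and P2ry12 from -0.182 to 0.056, and under CCI-779 P2ry12 ran from -0.043 to 0.148, Csf1r from -0.032 to 0.091 and Tyrobp from -0.129 to 0.283. The interaction of P2ry12 ran from -0.008 to 0.230. For the average, Aif1 ran from -0.017 to 0.005 and the second and the third set of Csf1r from -0.019 to 0.060 and from -0.009 to 0.094. P2ry13, Tmem119 and Trem2 are limited by signal near background.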
